A study of Mus musculus with 10 samples.

Results

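Expression of 9 genes that take up, bind, oxidize, sense or break down vitamin A was measured by RNA sequencing in subcutaneous lung tumors of obese mice given liraglutide or vehicle. The genes were Stra6, Rbp4, Crabp1, Crabp2, Aldh1a1, Aldh1a2, Aldh1a3, Rarb and Cyp26b1, found by symbol among 55401 genes of the count table, of which 35141 had at least 1 count in a tumor. Stra6 was selected by its p, the smallest of 17464 genes tested between liraglutide and vehicle tumors. Its values between the groups are therefore a description with no test. The other 8 were selected by their function in the retinoid pathway, with earlier results of these data known, so counts over them are not those of an unselected set.

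Liraglutide is an agonist of the glucagon-like peptide-1 receptor used against diabetes and obesity, and the comparison asks how tumor gene expression differs under treatment. KPN1.1 is a mouse lung adenocarcinoma line without Trp53 that carries the NINJA neoantigen construct. It was injected into the flanks of obese male C57BL/6J mice on a high-fat diet, aged 7 to 17 weeks at injection. From the time a tumor could be felt, mice received daily intraperitoneal liraglutide at 0.2 µg per g body weight (5 tumors) or PBS vehicle (5 tumors), and tumors were taken 19 to 22 days after injection. All tumors were thus grafts of 1 cell line outside the lung, in obese male hosts with an intact immune system. Each value comes from a whole tumor fragment with tumor and host cells together, so fewer cells of a type and less RNA per cell cannot be told apart.

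Vitamin A travels in blood as retinol bound to retinol binding protein, which Rbp4 encodes, and the membrane protein encoded by Stra6 lets cells take it up. Inside the cell, retinol is oxidized to retinal and then, by the retinaldehyde dehydrogenases Aldh1a1, Aldh1a2 and Aldh1a3, to retinoic acid. Retinoic acid is bound by the proteins that Crabp1 and Crabp2 encode, acts through nuclear retinoic acid receptors such as that of Rarb, and is broken down by Cyp26 enzymes. Rarb and Stra6 are known targets of retinoic acid in several cell types, and retinoic acid receptors bind pairs of a short half-site in the same orientation, most often with 2 or 5 bases between them.

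Total counts per tumor lay between 9927942 and 14480593, and 3 counts, the floor for a value read as 0, corresponded to between 0.207 and 0.315 CPM, the counts of a gene scaled to a common library size. Floors cover counting error only. The epithelial genes Krt8, Krt18, Krt19 and Cdh1 were abundant, and 5 epithelial markers summed to 4599 to 9649 CPM in vehicle and 4674 to 6919 CPM in liraglutide tumors. Epcam, the remaining epithelial marker, was at 0.163 to 4.63 CPM, and of the lung epithelial markers the surfactant gene Sftpc was at 0 to 5.96 CPM, the surfactant gene Sftpb at 65.1 to 530 CPM and the lung transcription factor gene Nkx2-1 at 17.7 to 132 CPM. Nkx2-1 averaged 46.3 CPM under vehicle and 91.8 CPM under liraglutide (edgeR's quasi-likelihood test, unadjusted p = 0.0495, not passing adjustment), and its part in the members' values was not tested. Of the 4 lung epithelial markers it was the only 1 with an unadjusted p under 0.05. Sftpb was at 65.1 to 530 CPM under vehicle and 73.4 to 417 CPM under liraglutide. Of the other marker lists, summed levels in vehicle and liraglutide tumors ranged from 1069 to 2689 and from 1452 to 2712 CPM for fibroblasts, from 64.1 to 135 and from 76.0 to 148 CPM for leukocytes, and from 90.0 to 145 and from 92.0 to 119 CPM for endothelium. Dendritic cell markers summed to at most 34.2 CPM in any tumor and Schwann cell markers to at most 4.42 CPM. Lung epithelial markers summed to 91.2 to 600 CPM in vehicle and 177 to 532 CPM in liraglutide tumors, and skeletal muscle markers to 29.6 to 232 and 57.0 to 280 CPM.

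Promoter windows are described first, and those printed were picked by their letter matches. Windows from 250 bases before to 50 bases after each annotated start (RefSeq, GRCm38.p6) were searched on both strands for the half-site AGGTCA, for the variant AGTTCA that the repeat of Rarb is known for, for a further variant GGGTCA and for its relative GGTTCA. At least 1 half-site stood in 43.7% of 32851 windows of all genes, while a direct repeat spaced by 5 bases stood in 0.0974% and one spaced by 2 bases in 0.268%. Of the members, 7 had a window in the table (12 windows), and Crabp2 and Aldh1a3 had none. Of these windows 1, that of Rarb at chr14:16575427-16575726 on the minus strand, held such a repeat, spaced by 5 bases, at positions -53 to -37 from the start. Among the 67 genes of a wider retinoid list, 51 had a window, and the only other gene with such a repeat was Cyp26a1, the retinoic acid hydroxylase, at chr19:37697558-37697857 on the plus strand, positions -32 to -16, with the repeat on the opposite strand. Stra6 had 4 windows, and a single half-site stood in 1 of them, at chr9:58133825-58134124 on the plus strand. Capitals mark the half-sites of the repeat in Rarb and Cyp26a1, and the single half-site in Stra6. A match describes letters and is not evidence of binding.
Rarb: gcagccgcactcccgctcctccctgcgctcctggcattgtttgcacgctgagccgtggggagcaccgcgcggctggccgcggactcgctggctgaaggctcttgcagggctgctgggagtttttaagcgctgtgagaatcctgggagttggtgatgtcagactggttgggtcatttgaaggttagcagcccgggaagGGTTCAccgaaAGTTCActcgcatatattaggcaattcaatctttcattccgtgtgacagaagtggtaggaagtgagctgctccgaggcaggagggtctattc
Cyp26a1: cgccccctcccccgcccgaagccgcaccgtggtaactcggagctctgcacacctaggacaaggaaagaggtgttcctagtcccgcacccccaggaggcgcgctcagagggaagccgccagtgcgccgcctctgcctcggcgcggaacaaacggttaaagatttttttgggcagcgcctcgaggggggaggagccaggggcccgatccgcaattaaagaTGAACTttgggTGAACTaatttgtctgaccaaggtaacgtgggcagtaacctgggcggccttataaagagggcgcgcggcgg
Stra6: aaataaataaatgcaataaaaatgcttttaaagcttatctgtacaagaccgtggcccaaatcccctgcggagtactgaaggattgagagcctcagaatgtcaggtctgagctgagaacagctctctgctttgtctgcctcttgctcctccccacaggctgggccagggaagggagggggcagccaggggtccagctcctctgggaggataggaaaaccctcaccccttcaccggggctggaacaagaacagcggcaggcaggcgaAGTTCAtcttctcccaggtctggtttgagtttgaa

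No member passed the test at an adjusted p under 0.05, and neither did any other gene: edgeR's quasi-likelihood test with Benjamini-Hochberg adjustment called 0 of 17464 genes (0%), with a smallest adjusted p of 0.482. At an unadjusted p under 0.05 it gave 1675 genes, or 9.59%, of which 694 (3.97%) were higher and 981 (5.62%) lower in liraglutide tumors. This balance depends on the scale, since the higher genes made up 41.4% here, 61.5% under scaling by library size alone and 50.6% in the blocked fit by tumor number. DESeq2 gave 52 genes at an adjusted p under 0.05 among the 3796 to which it gave one, or 1.37%. Its filter on mean counts gave an adjusted p to 11 of the 63 genes in its fit from the wider retinoid list, and to only 2 of the members, and 0 of those 11 were under 0.05. Of the members, 7 had enough reads to be tested, while Crabp2 and Rarb did not. Apart from Stra6, 3 of the 6 tested members (Aldh1a1, Aldh1a3 and Cyp26b1) had an unadjusted p under 0.05, and this count lay between 0 and 3 over the alternatives tried. It was 0 without vehicle tumor 1 and 0 without liraglutide tumor 3. Crabp2 and Rarb, which entered some of these fits, are outside this count. Rarb had an unadjusted p of 0.014 in DESeq2's Wald test. In edgeR's quasi-likelihood test its unadjusted p was 0.0485 without vehicle tumor 1 and 0.0537 without vehicle tumor 5.

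**Figure D1:**
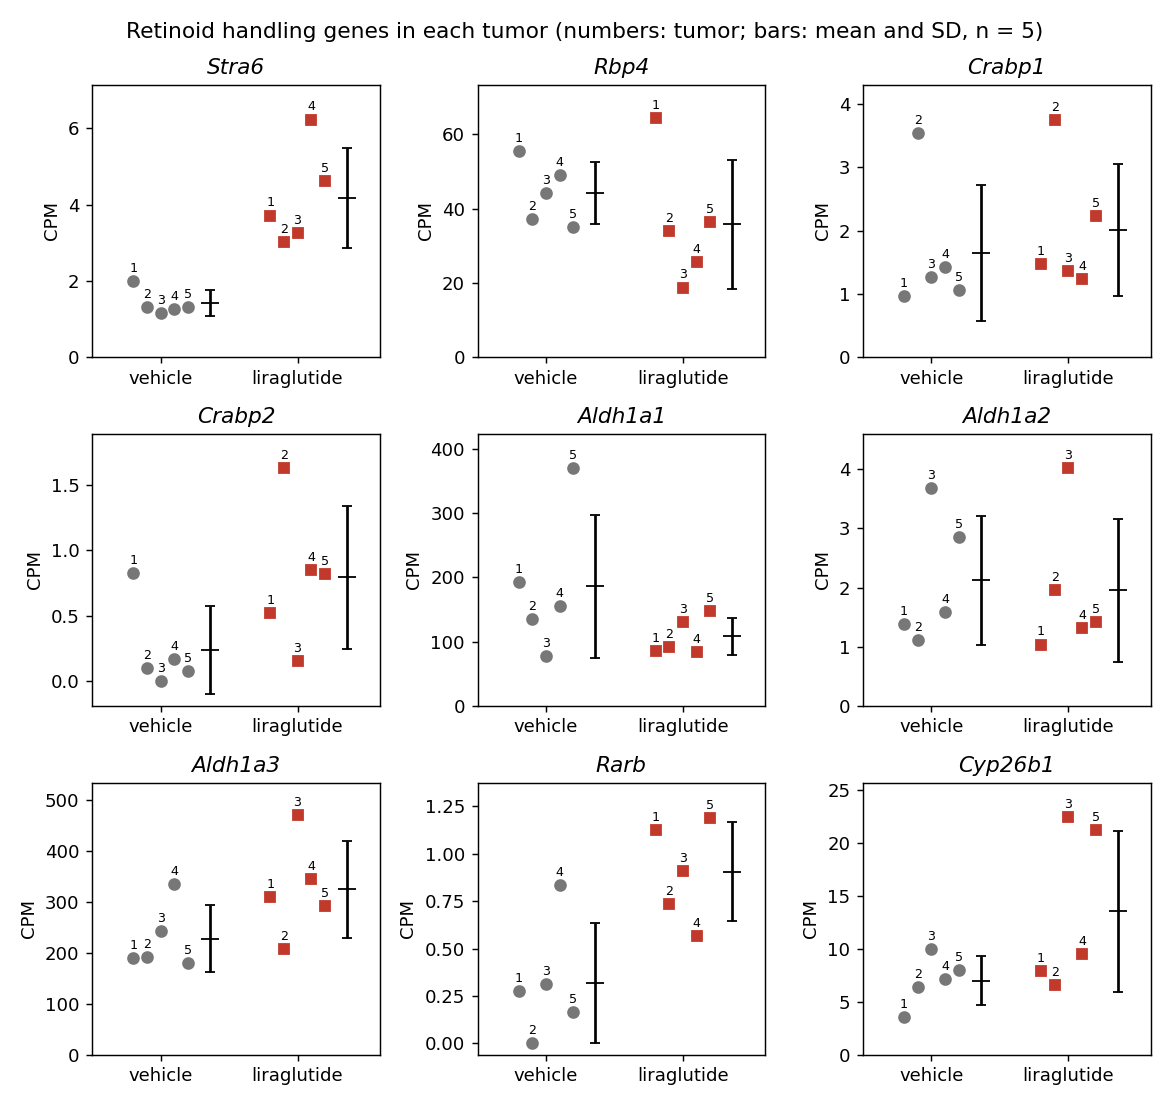
CPM (vertical axes, each from its own range) of the 9 genes in the 5 vehicle tumors (gray circles) and the 5 liraglutide tumors (red squares), numbered by tumor, with the mean and SD as bars. The lowest Stra6 value under liraglutide, 3.02 CPM, lies above the highest under vehicle, 2.00 CPM, while the values of every other gene overlap.

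Stra6 (ENSMUSG00000032327.14, chr9:57970967-58063543 on the plus strand of GRCm39), the retinol uptake receptor, was read 29, 13, 11, 15 and 16 times in vehicle tumors 1 to 5 and 43, 37, 43, 66 and 62 times in liraglutide tumors 1 to 5. These counts gave 2.00, 1.32, 1.15, 1.26 and 1.30 CPM under vehicle and 3.71, 3.02, 3.26, 6.23 and 4.62 CPM under liraglutide. Every liraglutide tumor was above every vehicle tumor, and vehicle tumor 1 was the highest of its group. Means were 1.41 ± 0.339 CPM (SD, n = 5) and 4.17 ± 1.31 CPM (SD, n = 5), a fitted log2 fold change of 1.55 with a standard error of 0.26, or 2.92-fold. Groups that do not overlap were seen for 261 of 17464 genes (1.49%), and since Stra6 was chosen by this contrast nothing further is read from its place among them. The estimate for Stra6 lay between 1.37 and 1.72 when single tumors were dropped.

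The annotated span of Stra6 overlaps Ccdc33 on the opposite strand for 55140 bases, none of them exon on exon, and Ccdc33 had at most 1 count in a tumor. Gm16131, a noncoding gene within the span on the same strand, was at 0 counts in all 10 tumors. The last 16 bases of Stra6 also belong to an exon of Islr on the opposite strand, whose own level was 1.17 to 7.07 CPM. The counting setting for strand is not given in the sources used here, so reads over those 16 bases cannot be assigned to either gene with certainty.

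Rbp4 (ENSMUSG00000024990.13, chr19:38105066-38113754 on the minus strand), which encodes the plasma retinol carrier, was at 55.4, 37.3, 44.2, 49.0 and 34.9 CPM in vehicle tumors 1 to 5. In liraglutide tumors 1 to 5 it was at 64.4, 33.9, 18.7, 25.7 and 36.3 CPM. The groups overlapped widely: liraglutide tumor 1 had the highest value of all and liraglutide tumor 3 the lowest. Means were 44.2 ± 8.40 and 35.8 ± 17.4 CPM (SD, n = 5 each), and the log2 fold change of -0.31 (standard error 0.28) did not exceed the spread between tumors in edgeR's quasi-likelihood test (Benjamini-Hochberg adjusted p = 0.725). It ranged from -0.63 without liraglutide tumor 1 to -0.14 without liraglutide tumor 3, so single tumors decide its size. Rbp4 is also made by fat cells. The summed level of 6 adipocyte markers was 15.3 to 87.6 CPM under vehicle and 19.4 to 51.1 CPM under liraglutide, and its part in the Rbp4 values was not tested. The last 222 bases of Rbp4 overlap an exon of Ffar4, a fatty acid receptor gene on the opposite strand, which was itself at 13.1 to 62.3 CPM.

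Of the retinoic acid binding proteins, Crabp1 (ENSMUSG00000032291.8, chr9:54671171-54680403 on the plus strand) was read 14, 35, 12, 17 and 13 times in vehicle tumors 1 to 5 and 17, 46, 18, 13 and 30 times in liraglutide tumors 1 to 5. In CPM it was at 0.97, 3.55, 1.26, 1.42 and 1.06 under vehicle and 1.47, 3.75, 1.36, 1.23 and 2.23 under liraglutide. The number 2 tumor was the highest of each group, liraglutide tumor 5 came next, and the remaining 7 tumors lay between 0.97 and 1.47 CPM. The log2 fold change was 0.30 (standard error 0.44; edgeR's quasi-likelihood test, Benjamini-Hochberg adjusted p = 0.821), and it was -0.036 without liraglutide tumor 2.

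Crabp2 (ENSMUSG00000004885.5, chr3:87855973-87860683 on the plus strand), whose protein carries retinoic acid to the nucleus, was too low for the test. It had 12, 1, 0, 2 and 1 counts in vehicle tumors 1 to 5 and 6, 20, 2, 9 and 11 counts in liraglutide tumors 1 to 5, or 16 against 48 in sum. The counts overlapped: vehicle tumor 1 held most of the vehicle counts and liraglutide tumor 2 was the highest of all. With every gene of at least 1 count in the fit, the log2 fold change was 1.59 (standard error 0.75; edgeR's quasi-likelihood test, Benjamini-Hochberg adjusted p = 0.62).

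Among the retinaldehyde dehydrogenases, Aldh1a1 (ENSMUSG00000053279.8, chr19:20469539-20622825 on the plus strand) was at 193, 135, 77.8, 155 and 370 CPM in vehicle tumors 1 to 5. In liraglutide tumors 1 to 5 it was at 85.5, 91.5, 131, 84.4 and 148 CPM. Vehicle tumor 5 stood highest and vehicle tumor 3 lowest of all, so the vehicle values spanned the whole liraglutide range. Means were 186 ± 111 and 108 ± 29.3 CPM (SD, n = 5 each), a log2 fold change of -0.79 (standard error 0.35), with an unadjusted p of 0.0471 and a Benjamini-Hochberg adjusted p of 0.518 in edgeR's quasi-likelihood test. Without vehicle tumor 5 the log2 fold change was -0.37, and over all single tumors dropped it ranged from -0.97 to -0.37.

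Aldh1a3 (ENSMUSG00000015134.15, chr7:66040638-66077850 on the minus strand) was at 190, 192, 242, 335 and 180 CPM in vehicle tumors 1 to 5. In liraglutide tumors 1 to 5 it was at 308, 208, 470, 344 and 291 CPM. Liraglutide tumors 3 and 4 were above every vehicle tumor, and the other liraglutide tumors were below vehicle tumor 4. Means were 228 ± 64.7 and 324 ± 95.5 CPM (SD, n = 5 each), a log2 fold change of 0.51 (standard error 0.23), with an unadjusted p of 0.0464 and a Benjamini-Hochberg adjusted p of 0.518 in edgeR's quasi-likelihood test. Leaving out each tumor in turn gave 0.34 to 0.70, the smallest without liraglutide tumor 3. DESeq2 gave adjusted p of 0.246 to Aldh1a1 and 0.271 to Aldh1a3, and none to the other 7 members, which it could therefore not call.

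Aldh1a2 (ENSMUSG00000013584.5, chr9:71122630-71203527 on the plus strand), the third enzyme of this step and the main one in the embryo, was low, with 20, 11, 35, 19 and 35 counts in vehicle tumors 1 to 5 and 12, 24, 53, 14 and 19 counts in liraglutide tumors 1 to 5. The highest values, 4.02 and 3.67 CPM, were those of liraglutide tumor 3 and vehicle tumor 3. Its log2 fold change was -0.11 (standard error 0.44; edgeR's quasi-likelihood test, Benjamini-Hochberg adjusted p = 0.949), and it changed sign with the tumor left out, from -0.55 to 0.18.

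Per kilobase of exon, Aldh1a3 made up 64.6, 72.5, 84.1, 79.9 and 47.4% of the summed level of the 3 enzymes in vehicle tumors 1 to 5, and 86.9, 80.3, 86.3, 88.1 and 78.4% in liraglutide tumors 1 to 5. Shares under vehicle spread widely and those under liraglutide lay close together, and vehicle tumors 3 and 4 fell within the liraglutide range. Aldh1a2 made up 0.36 to 1.57% in any tumor. In vehicle tumor 5 the level of Aldh1a3 was 0.917 times that of Aldh1a1, while in the other 9 tumors it was between 1.86 and 7.69 times. These ratios combine members whose values were known when they were set side by side and carry no test.

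**Figure D2:**
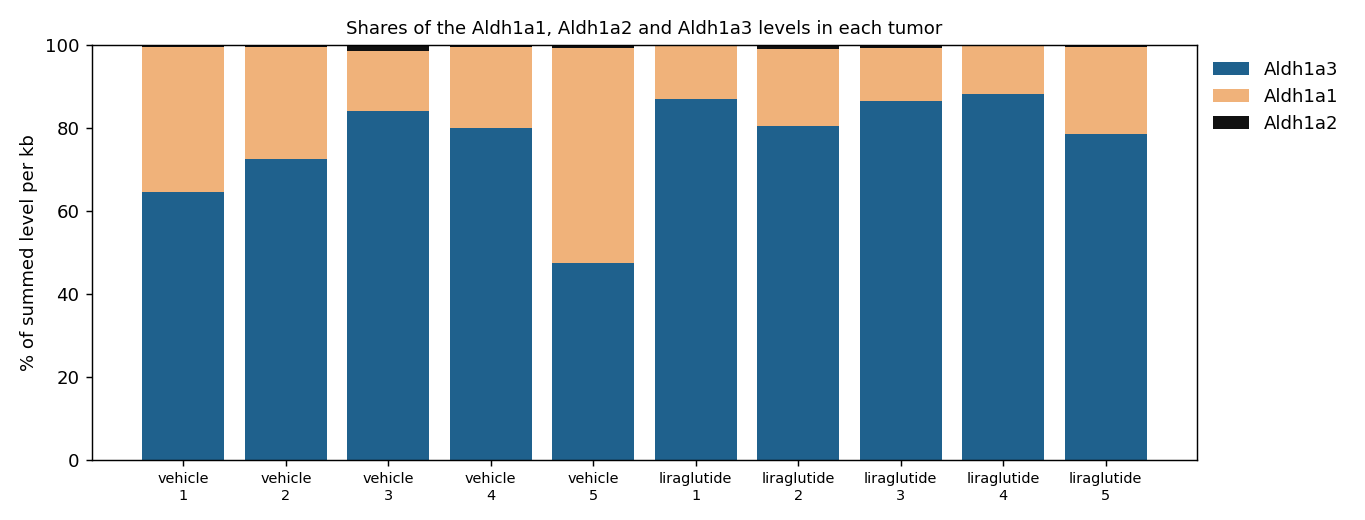
Shares (percent, vertical axis) of Aldh1a3, Aldh1a1 and Aldh1a2 in their summed level per kilobase of exon, 1 bar per tumor. Aldh1a3 took 47.4 to 84.1% in the vehicle tumors and 78.4 to 88.1% in the liraglutide tumors, and Aldh1a2 is the thin top band.

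Rarb (ENSMUSG00000017491.9, chr14:5650540-6041094 on the plus strand of GRCm39), the retinoic acid receptor gene whose promoter repeat is printed above, was too low for the test. It had 4, 0, 3, 10 and 2 counts in vehicle tumors 1 to 5 and 13, 9, 12, 6 and 16 counts in liraglutide tumors 1 to 5, or 19 against 56 in sum. In CPM it was at 0.28, 0, 0.31, 0.84 and 0.16 under vehicle and 1.12, 0.73, 0.91, 0.57 and 1.19 under liraglutide. Vehicle tumor 4 lay among the liraglutide tumors, and the other 4 vehicle tumors lay below all of them. With every gene of at least 1 count in the fit, the log2 fold change was 1.47 (standard error 0.58; edgeR's quasi-likelihood test, unadjusted p = 0.024, Benjamini-Hochberg adjusted p = 0.62). Rarb shares 2612 exon bases with Top2b on the opposite strand, a gene at 188 to 312 CPM, so reads of Top2b on those bases could enter the Rarb counts if strand was not used.

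Cyp26b1 (ENSMUSG00000063415.12, chr6:84548396-84570890 on the minus strand), a retinoic acid hydroxylase, was at 3.59, 6.39, 9.97, 7.11 and 7.98 CPM in vehicle tumors 1 to 5. In liraglutide tumors 1 to 5 it was at 7.95, 6.61, 22.4, 9.54 and 21.2 CPM. Liraglutide tumors 3 and 5 were above every vehicle tumor and the other liraglutide tumors lay within the vehicle range. Means were 7.01 ± 2.34 and 13.6 ± 7.64 CPM (SD, n = 5 each), a log2 fold change of 0.96 (standard error 0.39), with an unadjusted p of 0.0304 and a Benjamini-Hochberg adjusted p of 0.503 in edgeR's quasi-likelihood test. Leaving out each tumor in turn gave 0.71 to 1.14. The mast cell protease gene Mcpt4 was also highest in liraglutide tumors 3 and 5, at 273 and 117 CPM, and made up most of the summed level of 4 mast cell markers, which was 28.0 to 132 CPM under vehicle and 70.2 to 292 CPM under liraglutide. The other 3 mast cell markers, Cpa3, Cma1 and Tpsb2, were highest in vehicle tumor 4, at 16.2, 8.87 and 9.71 CPM. The part of mast cells in the Cyp26b1 values was not tested. The other members of this enzyme family were near 0, with 0 to 2 counts of Cyp26a1 and 0 to 6 counts of Cyp26c1 in a tumor.

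Members differed in level by orders of magnitude, compared as CPM per kilobase of exon. Mean levels in vehicle and liraglutide tumors were 40.0 and 56.9 for Aldh1a3, 31.0 and 25.1 for Rbp4, 17.3 and 10.1 for Aldh1a1, 1.23 and 2.38 for Cyp26b1, and 1.27 and 1.54 for Crabp1. They were 0.46 and 0.42 for Aldh1a2, 0.17 and 0.49 for Stra6, 0.18 and 0.60 for Crabp2, and 0.038 and 0.11 for Rarb. Over the 10 tumors, 5 of the 8 neighbouring pairs in the order of mean log2 level differed by a two-sided exact permutation test of the within-tumor differences, adjusted over the 8 pairs. The smallest unadjusted p this test can give is 0.00195. The 5 include the pair of Crabp2 and Rarb, whose order rests in part on the added 0.5 read, as given below. Aldh1a3 was above Rbp4 by 1.74-fold in 9 of 10 tumors (exact permutation, adjusted p = 0.00781), Rbp4 above Aldh1a1 by 2.17-fold in 9 of 10 (exact permutation, adjusted p = 0.00938), and Aldh1a1 above Cyp26b1 by 7.77-fold in 10 of 10 (exact permutation, adjusted p = 0.00781). The pair of Cyp26b1 and Crabp1 was not separated (1.22-fold, 7 of 10 tumors, exact permutation, adjusted p = 0.44), and Crabp1 was above Aldh1a2 by 3.19-fold in 10 of 10 tumors (exact permutation, adjusted p = 0.00781).

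Stra6 stood near the lower end of this order. It was not separated from Aldh1a2 above it (1.42-fold, 7 of 10 tumors, exact permutation, adjusted p = 0.312) or from Crabp2 below it (6 of 10 tumors, exact permutation, adjusted p = 0.723). No fold is given for Stra6 over Crabp2, since Crabp2 was under 3 counts in vehicle tumors 2 to 5 and liraglutide tumor 3, where the added 0.5 read matters. Rarb was placed below Crabp2 (exact permutation, adjusted p = 0.00781), but both were under 3 counts in vehicle tumors 2 and 5, where the added 0.5 read and the longer exons of Rarb set the order, so no fold is given. The order pools both groups: by group, Aldh1a2, Stra6 and Crabp2 took places 6, 7 and 8 in vehicle tumors and 8, 7 and 6 in liraglutide tumors. Crabp2 stood above Stra6 with a pseudocount of 1 read, without vehicle tumor 3 and without liraglutide tumor 3. With the length of the longest transcript in place of all exons, 4 pairs differed, Rbp4 and Aldh1a1 were no longer separated, and Stra6 stood above Aldh1a2.

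**Figure D3:**
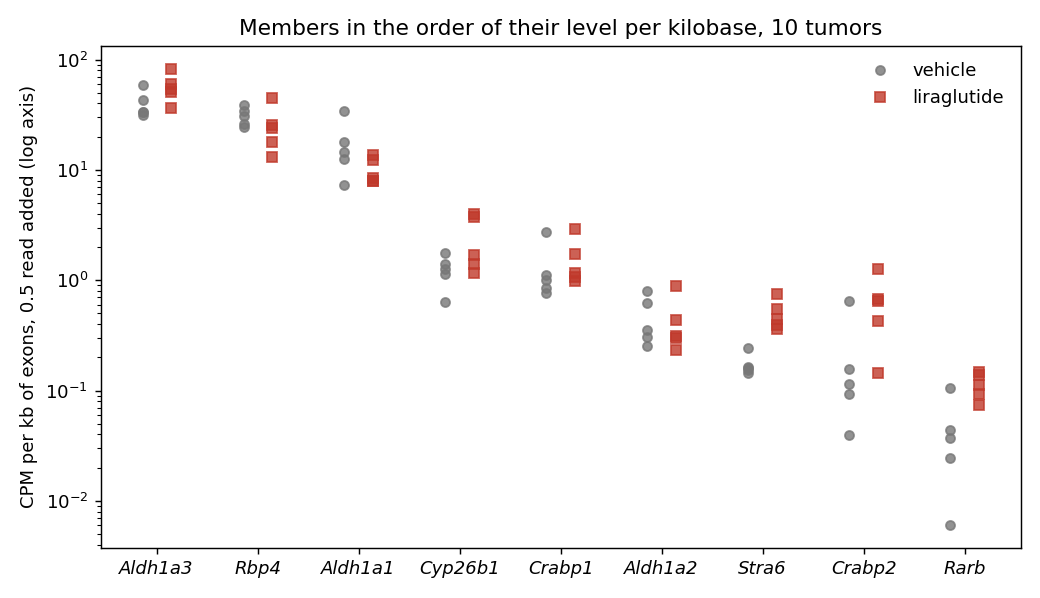
Level per kilobase of exon (CPM per kb with 0.5 read added, log axis) of the 9 members in the order of their mean over 10 tumors, vehicle as gray circles and liraglutide as red squares. Aldh1a3, Rbp4 and Aldh1a1 form the upper end, and Aldh1a2, Stra6 and Crabp2 lie close together near the lower end, with Rarb last.

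Retinoid genes beyond the members were read from the list of 67, of which 40 were tested. Of these 40, 0 passed the adjusted threshold, and 9 had an unadjusted p under 0.05 (22.5%, against 9.59% of all genes), 6 higher and 3 lower in liraglutide tumors. Their median log2 fold change was 0.11, beside -0.02 for all genes tested, and it was 0.065 without liraglutide tumor 3 and 0.068 without liraglutide tumor 1. Without the members, 5 of 33 tested genes had such a p (15.2%), and these were Bco2, Dhrs3, Fabp5, Dhrs9 and Adh5. The list holds the members, which were chosen with results known, and the count moved between 5 and 11 with each tumor left out.

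In the uptake, transport and storage class, 6 of 10 genes were tested, and of the 5 besides Stra6, 0 had an unadjusted p under 0.05. Rbp2, the most abundant tested gene of the class outside the members, was at 28.2 ± 32.7 CPM under vehicle and 34.1 ± 24.0 CPM under liraglutide (SD, n = 5 each), with a log2 fold change of 0.27 that was 1.23 without vehicle tumor 5 and -0.07 without liraglutide tumor 3. Both carotenoid cleavage genes were tested. Bco2, which cleaves carotenoids off center, was at 0.760, 0.304, 1.15, 2.59 and 1.38 CPM in vehicle tumors 1 to 5 and 3.46, 1.31, 3.26, 3.31 and 3.42 CPM in liraglutide tumors 1 to 5. All liraglutide values but that of tumor 2 exceeded every vehicle value (log2 fold change 1.24, unadjusted p = 0.0196 in edgeR's quasi-likelihood test, adjusted p = 0.484). Bco1, which makes retinal from beta-carotene, was at 19.5 ± 31.1 and 7.75 ± 4.77 CPM (SD, n = 5 each), with a log2 fold change of -1.33 and an adjusted p of 0.621 in the same edgeR fit. That value rests on vehicle tumor 5, at 74.9 CPM against at most 14.1 CPM elsewhere, and without it the log2 fold change was 0.47.

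Of 19 genes that interconvert retinol and retinal, 10 were tested and 3 had an unadjusted p under 0.05. Dhrs3, which reduces retinal back to retinol, was at 41.2, 46.1, 57.6, 55.2 and 55.2 CPM in vehicle tumors 1 to 5 and 86.9, 48.1, 98.6, 70.9 and 69.9 CPM in liraglutide tumors 1 to 5. Again 4 liraglutide tumors exceeded every vehicle tumor and tumor 2 did not (log2 fold change 0.55, edgeR's quasi-likelihood test, unadjusted p = 0.0104, adjusted p = 0.482). Adh5, an alcohol dehydrogenase active chiefly on glutathione-bound formaldehyde, was lower in every liraglutide tumor, at 68.8 to 79.8 CPM against 81.4 to 101 CPM (log2 fold change -0.28, edgeR's quasi-likelihood test, unadjusted p = 0.0113, adjusted p = 0.482). Dhrs9, a retinol dehydrogenase, was at 49.7 ± 26.4 and 25.2 ± 11.4 CPM (SD, n = 5 each) with overlapping groups (log2 fold change -0.98, edgeR's quasi-likelihood test, unadjusted p = 0.0377, adjusted p = 0.513). Rdh10, which oxidizes retinol to retinal and had the highest mean over all 10 tumors among tested genes of the class, was at 88.6 ± 37.7 and 92.0 ± 28.6 CPM (SD, n = 5 each).

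In the remaining classes, Aldh1a7, a mouse relative of Aldh1a1, was at 3.45 to 20.1 CPM under vehicle and 4.33 to 33.6 CPM under liraglutide, with a log2 fold change of 0.60 and an adjusted p of 0.723 by edgeR. Its highest value was in liraglutide tumor 5, without which the log2 fold change was 0.09. Fabp5, a fatty acid binding protein that also carries retinoic acid, was at 9.81, 10.6, 15.1, 16.1 and 16.2 CPM in vehicle tumors 1 to 5 and 15.5, 31.4, 13.3, 19.8 and 21.3 CPM in liraglutide tumors 1 to 5 (log2 fold change 0.58, edgeR's quasi-likelihood test, unadjusted p = 0.0361, adjusted p = 0.512). Fabp5 is abundant in keratinocytes, and its highest value was in liraglutide tumor 2, the tumor with the highest sum of keratinocyte markers, without which its log2 fold change was 0.37. Of 8 tested receptors and corepressors and 7 tested retinoic acid response genes, 0 had an unadjusted p under 0.05. The most abundant of these classes were the corepressor Ncor1, at 558 ± 97.2 and 656 ± 60.3 CPM, and the transglutaminase Tgm2, at 88.8 ± 53.8 and 140 ± 31.5 CPM (SD, n = 5 each). In all 10 tumors 4 listed genes, Rbp3, Rdh8, Cdx1 and Hoxb1, were at 0.

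**Figure D4:**
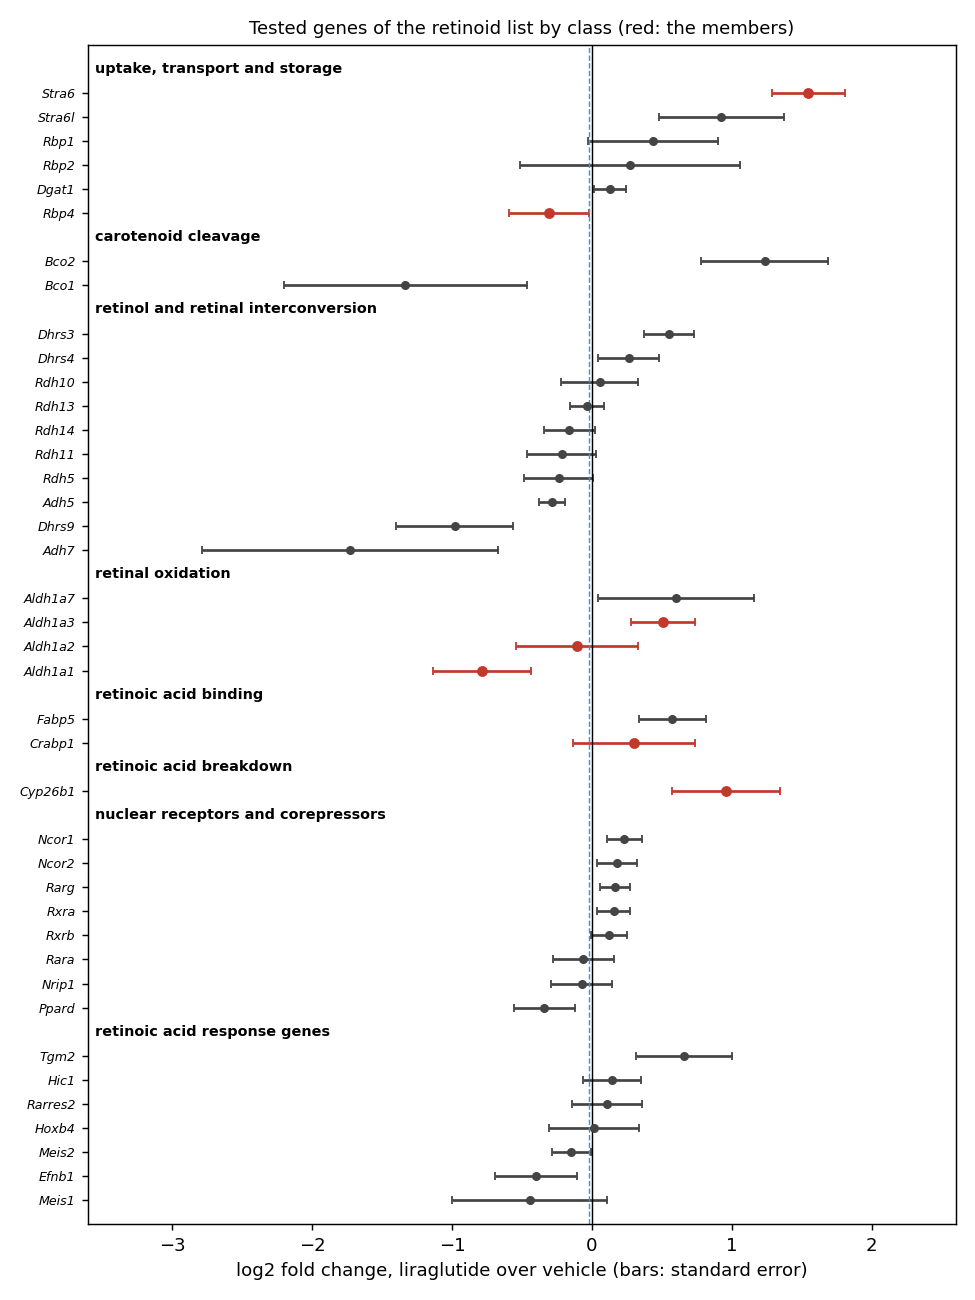
Log2 fold change of liraglutide over vehicle (horizontal axis, bars standard errors) for the 40 tested genes of the retinoid list, grouped by class, with members in red and the median of all genes tested as a dashed line at -0.02. Stra6 lies at 1.55, 23 of the 40 genes lie above 0 and 17 below, and no gene passed an adjusted p under 0.05.

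Keratinocyte markers were uneven between tumors. The summed level of Krt1, Krt5, Krt10, Krt14, Dsg3 and Trp63 was 9.05 to 20.4 CPM in vehicle tumors and 7.17, 215, 9.02, 79.6 and 56.6 CPM in liraglutide tumors 1 to 5. Of these 6 genes, 5 had an unadjusted p under 0.05 and 0 passed adjustment in edgeR's quasi-likelihood test. Krt1 and Krt5, defining keratins of the upper and basal epidermis, were both at 0 counts in vehicle tumors 1 and 5 and in liraglutide tumors 1 and 3, and Krt1 also in vehicle tumor 2. In liraglutide tumors 1 and 3, where this sum was 7.17 and 9.02 CPM, Stra6 was at 3.71 and 3.26 CPM. Its groups do not overlap, so any liraglutide tumor is above every vehicle tumor whatever its keratinocyte markers. Without liraglutide tumors 2, 4 and 5, an alternative chosen after seeing the data that leaves 2 liraglutide tumors, the log2 fold change of Stra6 was 1.32, which must be positive since its groups do not overlap. In the same fit it was 0.80 for Aldh1a3, 1.15 for Cyp26b1 and -0.76 for Aldh1a1, each with a Benjamini-Hochberg adjusted p of 0.89 by edgeR. It was -0.07 for Rbp4, and it changed sign for Crabp1 (-0.18) and Aldh1a2 (0.29). Crabp2 was highest, at 1.63 CPM, in liraglutide tumor 2, the tumor with the highest sum of keratinocyte markers, and at 0.15 CPM in liraglutide tumor 3. The part of skin cells in the values of Stra6, the other members and Fabp5 was not tested.

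**Figure D5:**
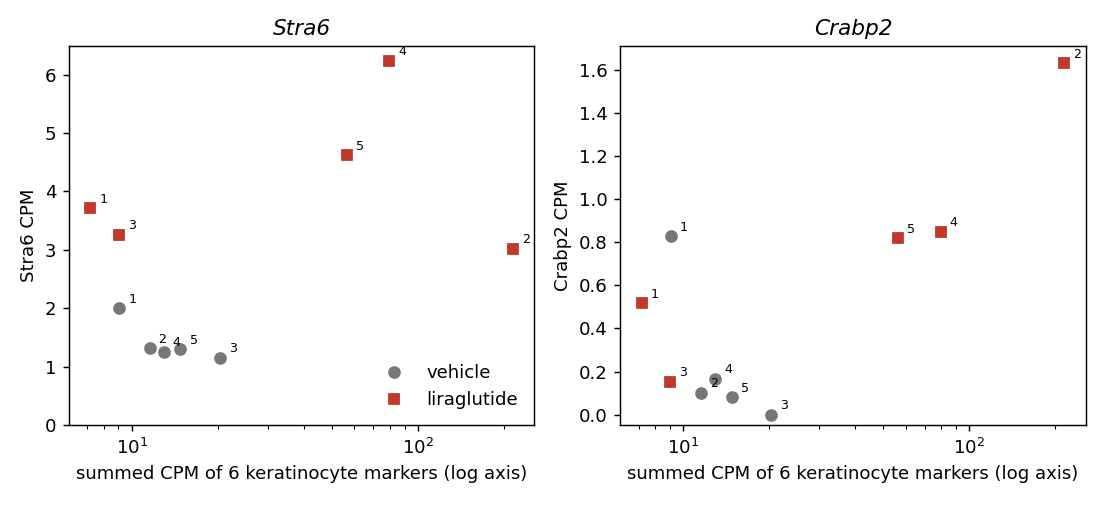
CPM of Stra6 (left) and Crabp2 (right) against the summed CPM of 6 keratinocyte markers (log axis) in each tumor, numbered, with vehicle as gray circles and liraglutide as red squares. Liraglutide tumors 1 and 3 lie at 7.17 and 9.02 CPM of keratinocyte markers with Stra6 at 3.71 and 3.26 CPM, and Crabp2 is highest in liraglutide tumor 2.

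Among tested genes, those most like Stra6 from tumor to tumor were found by Pearson's r of log2 CPM over the 10 tumors after each group's mean was subtracted, a description over few tumors of a gene with few reads. They were Spon1 (r = 0.90), which encodes the matrix protein F-spondin, Gm36989 (0.88), Iba57 (0.86), a mitochondrial iron-sulfur cluster gene, Gm44674 (0.85) and Gm47447 (0.84). Spon1 was at 38.5, 36.3, 34.8, 35.4 and 33.1 CPM in vehicle tumors 1 to 5 and 46.9, 40.3, 40.6, 56.6 and 53.0 CPM in liraglutide tumors 1 to 5. Its groups did not overlap either, and its log2 fold change was 0.41, while Iba57 differed by 0.05 between the groups. With the other tested members, the same r of Stra6 was 0.12 for Aldh1a1, 0.07 for Rbp4, -0.04 for Aldh1a3, -0.25 for Cyp26b1, -0.41 for Crabp1 and -0.50 for Aldh1a2.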

How the data were processed

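The libraries came from 10 flank tumors of the KPN1.1 line, 5 per group, with the group and tumor number of each taken from the sample labels. The authors deposited raw gene counts, for which TopHat 2.0.13 with Bowtie 1.0.1 had aligned paired reads to the GRCm39 build and featureCounts had counted them. The submitters' processing notes name mm10, GRCh38 and FastQC. Annotation release, strand setting and treatment of reads that map to several places are not given in the sources used here. Samples had been removed at quality assessment before deposit. Of the gene identifiers, 51731 (93.4%) matched GENCODE M39 on GRCm39 without their version, only 35 with it, so symbols, positions and exon lengths come from that annotation and may differ from the one counted. All 10 columns were used.

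Members and gene lists were chosen with earlier results of these data known. Genes were filtered with filterByExpr, scaled by TMM and tested over all genes with edgeR 4.0.16 in R 4.3.3 by the quasi-likelihood F test with Benjamini-Hochberg adjustment and a threshold of 0.05. Standard errors are the absolute log2 fold change divided by the square root of F. CPM use TMM-scaled library sizes, log2 CPM a prior count of 2. Genes named are the 9 members, retinoid genes with an unadjusted p under 0.05, the most abundant tested nonmember of each class, the 5 genes most like Stra6, and overlapping genes. Levels between genes were compared as log2 of (reads + 0.5) per kilobase of merged exons. Alternatives were DESeq2 1.42.0, its size factors or library size alone in edgeR, other count filters, the tumor number as a block, each tumor left out, other gene lengths and a pseudocount of 1. Scripts were tested on simulated data. Tumors of 1 group differed by at least 6.18 times counting noise (chi-square per degree of freedom), so none was treated as 1 library deposited again, which does not show that tumors are independent. The labels do not say that each tumor is from a separate mouse, and p-values measure the spread between these tumors. Each tumor's depth of 9927942 to 14480593 counts limits the low members most.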

Additional observations from a re-analysis of the deposited data

Results flagged for a closer look

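Within-group outliers were sought by Dixon's test in 42 groups of 5 tumors (9 members, the ratio of Aldh1a3 to Aldh1a1, and 11 marker sums), of which 5 stood out, where chance flags about 1 in 20 groups. Stra6 was at 2.00 CPM in vehicle tumor 1, with the next vehicle tumor at 1.32 CPM, and vehicle tumor 1 was still below every liraglutide tumor. Crabp1 was at 3.55 CPM in vehicle tumor 2, with the next at 1.42 CPM. Crabp2 was at 0.829 CPM in vehicle tumor 1, with the next at 0.167 CPM, a difference of 12 against 2 counts. Skeletal muscle markers summed to 232 CPM in vehicle tumor 3, with the next at 88.1 CPM, and mast cell markers summed to 292 CPM in liraglutide tumor 3, with the next at 132 CPM. Mcpt4 made up 273 of the 292 CPM, and the other mast cell markers in that tumor, Cpa3, Cma1 and Tpsb2, at 8.87, 4.85 and 5.69 CPM, were below vehicle tumor 4.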

How the results depend on the processing

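DESeq2 called 52 genes where edgeR called 0, but gave an adjusted p to only 2 of 9 members and none to Stra6. Of the 11 list genes with a DESeq2 adjusted p, 0 were called, and the edgeR alternatives called 0 list genes. The list's median log2 fold change was 0.065 to 0.15 with each tumor left out. With each tumor left out, edgeR still called 0 genes, and those at an unadjusted p under 0.05 numbered 919 (without liraglutide tumor 5), 1046 (without vehicle tumor 2) and 1070 (without liraglutide tumor 3) up to 2704 (without vehicle tumor 4), against 1675 with all tumors. In the retinoid list such genes numbered 5 to 11, 5 of them without liraglutide tumor 3 and 5 without liraglutide tumor 5. With library size alone as the scale, 61.5% of genes at an unadjusted p under 0.05 were higher in liraglutide tumors, against 41.4%. The log2 fold change of Crabp1 was -0.036 (without liraglutide tumor 2) to 0.77 with each tumor left out and that of Aldh1a2 -0.55 to 0.18. Chosen after seeing the data, the fit without the 3 liraglutide tumors with the highest sums of keratinocyte markers called 0 genes. It had 867 at an unadjusted p under 0.05 and 5 in the list, and turned Crabp1 to -0.18 and Aldh1a2 to 0.29. The causes were not tested. The other 7 members kept their direction in every fit that gave them a value. Stra6 could not turn when tumors were left out, since its groups do not overlap. Of the 10 fits with a tumor left out, Crabp2 had a value in 4 and Rarb in 6. With the tumor number as a replicate block, 0 genes were called and 2585 reached an unadjusted p under 0.05, the smallest adjusted p being 0.228. Same-numbered tumors are different mice and deviated together with correlations of -0.075 to 0.565, over 0.1 in 3 of 5 pairs. Of the 10 tumors, 3 correlated best with the tumor of their own number. The labels do not say that a number marks a pair, so the numbers were not taken as pairs, and a partial pairing is not excluded. Depth limits Crabp2 and Rarb, at 0 to 20 and 0 to 16 counts.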
